A study of Mus musculus with 203 samples.

Results

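Alveolar type I cells were followed through 9 of the genes that mark them, Ager, Hopx, Aqp5, Pdpn, Cav1, Cav2, Rtkn2, Clic5 and Emp2, each found by its symbol among the 43346 gene identifiers of the deposited table. Airway and parenchyma, separated by blunt dissection from lungs of female Balb/C mice whose labels give an age of 18 to 20 weeks, were sequenced as bulk RNA libraries in 20 groups of 10 to 12. House dust mite (HDM) extract, an allergen that causes experimental asthma, was given intranasally on 5 days per week for 3 weeks and then 3 times per week from week 4 to week 11, and controls received phosphate-buffered saline (PBS). At 3 weeks there were PBS (11 airway and 12 parenchyma libraries) and HDM (10 of each tissue). At 11 weeks, every combination of PBS or HDM with room air (AIR) or cigarette smoke (CS), and with or without the glucocorticoid dexamethasone (DEX), was represented by 10 libraries per tissue. Smoke was given for 8 weeks on 5 days per week as a model of chronic obstructive pulmonary disease, and DEX during week 11. All mice were of a wild-type strain with no transgene, and the labels do not say which airway and parenchyma libraries came from the same mouse.

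Type I cells are the very thin squamous cells that line most of the gas-exchange surface, where they lie against the capillary endothelium. They arise from cuboidal type II cells, which make surfactant, by way of flattened intermediate states, and their identity depends on Nkx2-1 and on the YAP, TAZ and TEAD factors. Ager encodes RAGE, a pattern recognition receptor carried on the basal side of the cell, and Pdpn encodes podoplanin, a mucin-like surface glycoprotein that binds CLEC-2 on platelets. Cav1 and Cav2 encode the caveolins that coat the many caveolae of these cells. Aqp5 encodes a water channel of the apical membrane, Clic5 an intracellular chloride channel protein linked to ezrin and the cytoskeleton, and Emp2 a tetraspan membrane protein. Hopx encodes a small homeodomain protein without DNA binding of its own. Several members are not confined to type I cells, since Cav1 and Cav2 are abundant in endothelium, Pdpn in lymphatic endothelium and mesothelium, Hopx in cardiac muscle and Aqp5 in glands.

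In mouse build GRCm38 (mm10) with the GENCODE M21 annotation, Cav2 (ENSMUSG00000000058.6, chr6:17281185-17289115) and Cav1 (ENSMUSG00000007655.12, chr6:17306335-17341452) were neighbours on the plus strand, 17220 bases apart. Ager (ENSMUSG00000015452.10) lay at chr17:34597862-34600936 on the plus strand, Clic5 (ENSMUSG00000023959.8) at chr17:44188584-44280172 on the plus strand, and Pdpn (ENSMUSG00000028583.10) at chr4:143267431-143299564 on the minus strand. Aqp5 (ENSMUSG00000044217.12) was at chr15:99590782-99594829 on the plus strand and Emp2 (ENSMUSG00000022505.8) at chr16:10281749-10313968 on the minus strand. Rtkn2 (ENSMUSG00000037846.14) was at chr10:67979570-68059740 on the plus strand and Hopx (ENSMUSG00000059325.10) at chr5:77086988-77115121 on the minus strand. All 9 are protein-coding genes with values summed over their exons. Hopx, Cav1, Cav2 and Rtkn2 overlap annotated antisense genes (Hopxos, Gm15581 for both caveolins, and Gm16212), and because strand use in counting is not given in the sources used here, reads of these pairs may not have been told apart.

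RefSeq promoters (GRCm38.p6) matched 8 of the 9 members, Rtkn2 being the exception, with 10 start sites among them. The 250 bases before the start are printed for the neighbouring Cav1 and Cav2, which were called changed together in several comparisons below. They are also printed for Hopx, which held the only match to a motif searched. Capitals in Hopx mark a match to ACANNNTGT, the core of the glucocorticoid receptor element, and the other 2 windows have no capitals because they held no match. The windows are chr5:77115124-77115373 on the minus strand for Hopx, chr6:17306085-17306334 on the plus strand for Cav1 and chr6:17280935-17281184 on the plus strand for Cav2.
Hopx: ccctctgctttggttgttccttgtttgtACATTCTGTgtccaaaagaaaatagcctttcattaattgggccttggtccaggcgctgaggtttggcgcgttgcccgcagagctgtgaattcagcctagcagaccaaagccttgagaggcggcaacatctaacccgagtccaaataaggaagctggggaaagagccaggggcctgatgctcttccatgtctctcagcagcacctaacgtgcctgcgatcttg
Cav1: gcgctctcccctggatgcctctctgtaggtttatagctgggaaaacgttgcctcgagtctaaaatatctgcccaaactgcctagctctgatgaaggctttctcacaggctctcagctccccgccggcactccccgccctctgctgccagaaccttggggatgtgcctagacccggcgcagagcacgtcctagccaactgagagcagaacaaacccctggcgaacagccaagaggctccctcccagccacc
Cav2: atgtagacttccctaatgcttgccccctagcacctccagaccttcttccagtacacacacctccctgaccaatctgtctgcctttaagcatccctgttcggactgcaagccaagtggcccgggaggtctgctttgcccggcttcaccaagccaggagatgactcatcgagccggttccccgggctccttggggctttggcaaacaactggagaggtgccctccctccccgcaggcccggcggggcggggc
On both strands, ACANNNTGT matched 1 of the 10 member promoters, and 5.84% of the 32851 promoters of the same length held it. GGAATG, the motif bound by TEAD factors, matched 0 of the 10, against 12.6% of all promoters. With 1 match in all, the motifs did not overlap, and a match or its absence describes only these letters.

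Total estimated counts ranged from 13003087 to 40240680 per library (median 28090612), and the lowest count of any member in any library was 276, for Rtkn2. Levels are given as CPM, counts scaled to the size of the library after TMM normalisation, and log2 fold changes (log2FC) with their standard error (SE) and Benjamini-Hochberg adjusted p are from limma-voom over all genes tested. A gene is called changed at an adjusted p under 0.05, and the share of all tested genes called the same way is given as the background. In 5 libraries the profile stood apart from their group or the total count was low (X63 of HDM airway at 3 weeks, X109 of HDM AIR airway, X32 of HDM AIR DEX parenchyma, X173 of PBS CS parenchyma and X160 of HDM CS DEX parenchyma). Results that change without them are given both ways. As nothing in the labels says how many of the libraries are from separate mice, p-values measure the spread between libraries. Each main fit shared its estimate of a gene's spread between airway and parenchyma. For every member the median SD of log2 values within groups was larger in airway. An SE from the shared estimate can therefore be too small for comparisons within airway and too large for those within parenchyma.

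In parenchyma of PBS AIR mice at 11 weeks, Ager was the highest of the members per length of exon, with a mean of 1274 CPM per kilobase (n = 10). Cav1 (579 CPM per kilobase) and Hopx (552) followed, then Cav2 (230), Clic5 (194.8), Emp2 (181.6), Pdpn (108.4), Aqp5 (88.99) and Rtkn2 (53.9). Exon lengths are approximate, because 53.3% of the identifiers carried the same version in the annotation used for lengths. Every member was measured in every library, so none was lost to the filter on low counts.

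**Figure D1:**
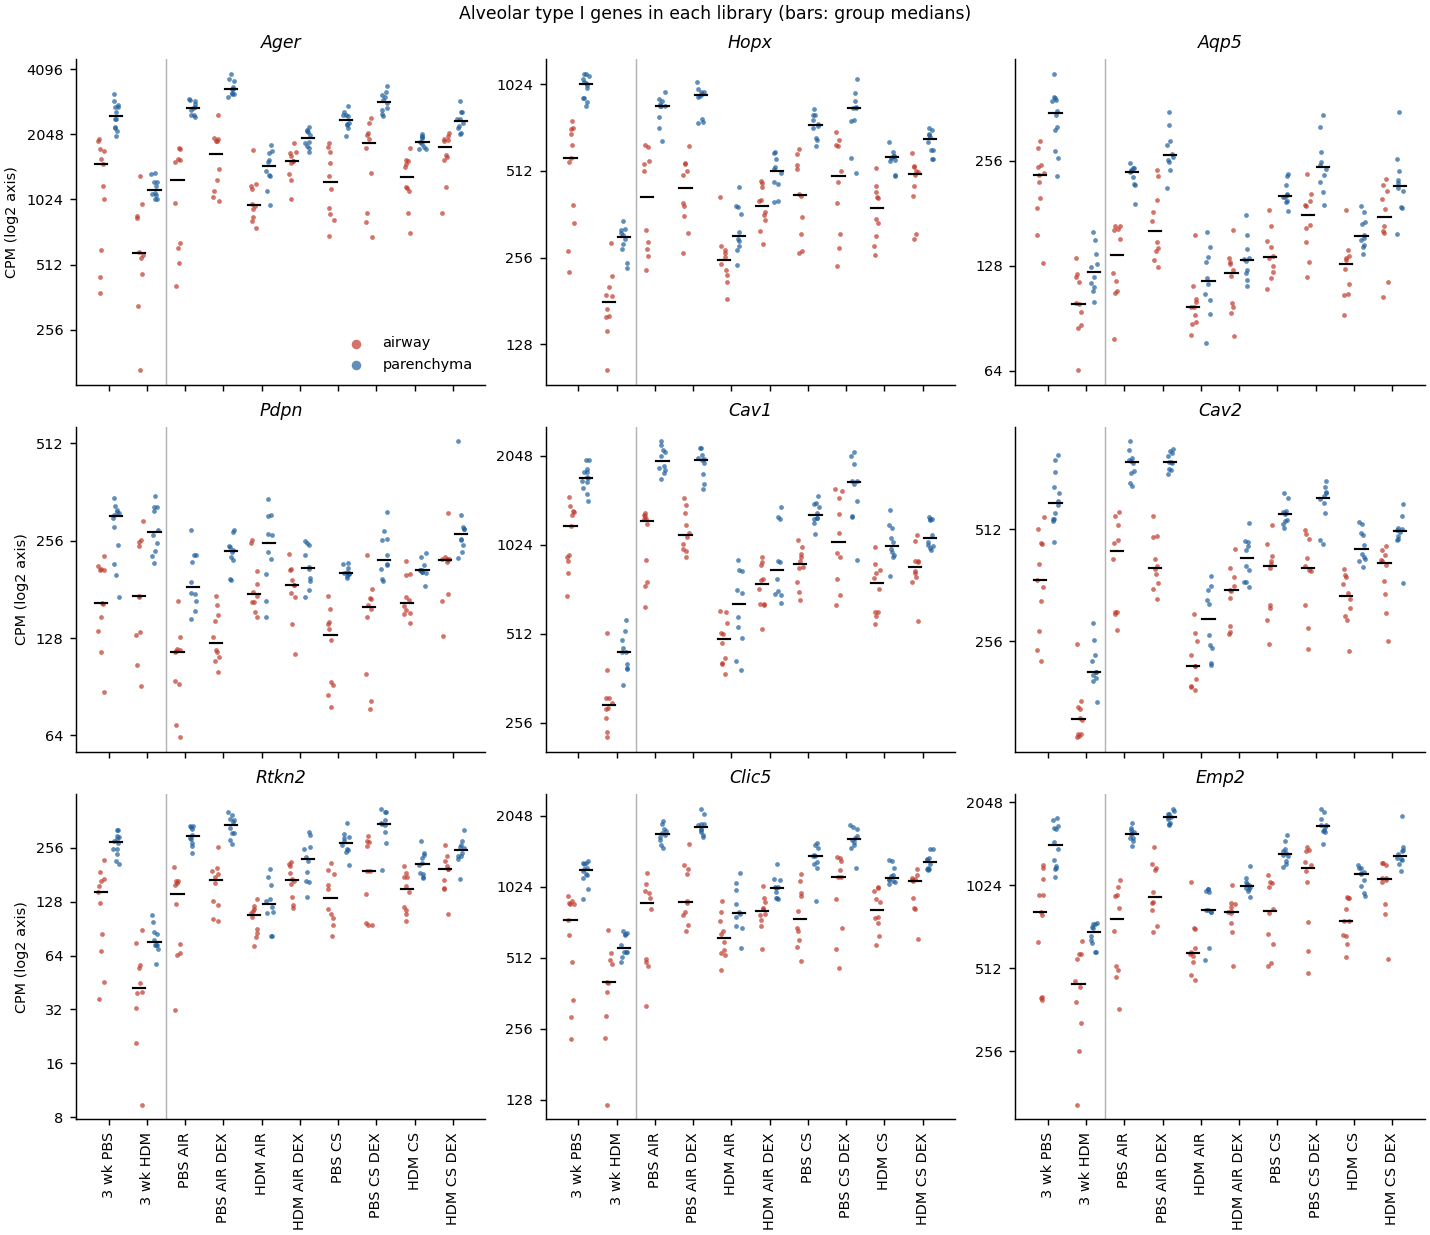
Levels of the 9 members in every library, in CPM on a log2 axis, with 1 panel per gene. Points are libraries in the 20 groups of week, tissue and exposure (red airway, blue parenchyma), and bars are group medians. Cav1 in parenchyma lies between 1441 and 1990 CPM with PBS at 3 weeks and between 344 and 569 with HDM.

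The first comparison asked how type I cell transcripts were divided between the dissected compartments. All 9 members were lower in airway than in parenchyma of PBS mice, both at 3 weeks and with AIR at 11 weeks. In bulk tissue, fewer cells of a type and less RNA per cell cannot be told apart. Ager in PBS AIR airway had a lowest, median and highest value of 406, 1256 and 1780 CPM, compared with 2472, 2722 and 2971 in parenchyma. The groups did not overlap, and the log2FC was -1.43 (SE 0.17, adjusted p = 1.7e-12). Rtkn2 differed most (log2FC -1.45, SE 0.19, adjusted p = 1.5e-11), with 31.8, 140.7 and 199.7 CPM in airway and 239, 296 and 338 in parenchyma. Aqp5 differed least (log2FC -0.79, SE 0.12, adjusted p = 8.5e-09). The caveolins were intermediate, with log2FC of -0.91 (SE 0.14) for Cav1 and -0.88 (SE 0.11) for Cav2, as were Hopx at -1.05 (SE 0.15), Clic5 at -1.23 (SE 0.15), Emp2 at -1.14 (SE 0.14) and Pdpn at -0.85 (SE 0.13).

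The 9 lower members stood against a background of 30.1% of genes lower, and in 8 members (all but Pdpn) the 2 groups did not overlap, against 7.07% of all genes. At 3 weeks the 9 differences in PBS mice (background 31.7%) ran from -1.24 (SE 0.26, adjusted p = 0.00011) for Rtkn2 to -0.62 (SE 0.12, adjusted p = 3.1e-05) for Aqp5. Only Ager and Hopx did not overlap there, against a background of 2.4%. Of 16 further type I genes listed with the members, 15 were lower in PBS AIR airway (median log2FC -1.19, all genes -0.03), led by Igfbp2 (-1.64), Akap5 (-1.48) and Col4a3 (-1.47), and Sec14l3 was higher (1.03). All 10 type II cell genes (median -1.05) and all 11 endothelial genes (median -1.16) were lower as well. Airway markers were higher in the same comparison, namely all 8 club cell genes (median 3.99), all 8 ciliated cell genes (2.15), all 7 smooth muscle genes (2.56) and all 7 cardiac muscle genes (5.77), the last of which mark the muscle sleeve around pulmonary veins.

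**Figure D2:**
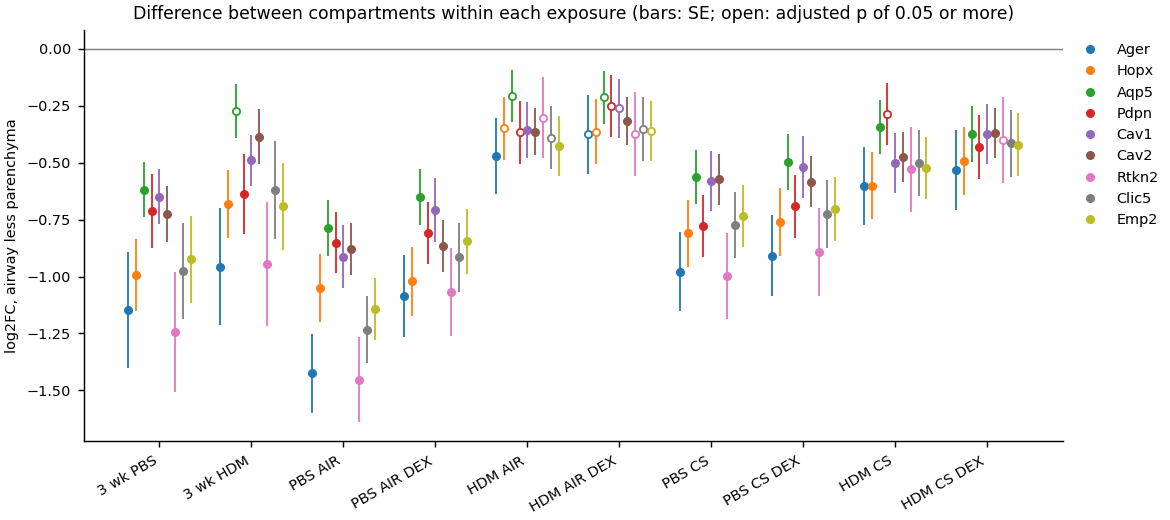
Airway less parenchyma for the 9 members in each of the 10 exposures. Points are log2FC from limma-voom and bars are SE. The values with PBS AIR at 11 weeks lie between -1.45 and -0.79, and those with HDM AIR between -0.47 and -0.21.

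Airway libraries differed widely among themselves in these genes. Over the 10 airway groups the median SD of log2 values within a group was 0.49 for Ager, 0.46 for Rtkn2 and 0.39 for Hopx, whereas in parenchyma it was 0.14, 0.23 and 0.17. Among the 11 PBS airway libraries at 3 weeks, the 9 members summed to 2626 CPM in the library coded X81 and to 7330 CPM in X41. The type II genes summed to 5467 CPM in X81 and 21520 CPM in X41, and the cardiac muscle genes to 4623 and 311 CPM. The type II sum was thus higher and the cardiac sum lower in X41 than in X81, the libraries with the highest and lowest sums of the members. No relation over all 11 libraries is given here, and the part of either list in the airway results was not tested.

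The compartment difference was present in all 4 PBS exposures at 11 weeks and was smaller in number of members called with HDM AIR. All 9 members were lower in airway with PBS AIR DEX (background 24.8%), PBS CS (23.8%) and PBS CS DEX (22.5%). After 3 weeks of HDM, 8 were lower (16.7%), with Aqp5 at -0.27 (adjusted p = 0.068). With HDM AIR, 4 were lower (Ager, Cav1, Cav2 and Emp2, with log2FC of -0.47 to -0.36), against a background of 3.48%, and with HDM AIR DEX only Cav2 (-0.32, adjusted p = 0.049, background 1.23%). Leaving out the libraries that stood apart, X109 among them, gave 7 members with HDM AIR and 0 with HDM AIR DEX. For HDM AIR, library quality weights also gave 7, a CPM minimum of 10 gave 2 and no filter gave 1, and for HDM AIR DEX the first gave 3 and the other two 0, as did all libraries in the same fit. With HDM CS and HDM CS DEX, 8 members were lower (backgrounds 7.85% and 7.74%), and the latter count was 5 without the libraries that stood apart.

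Exposure to HDM for 3 weeks lowered 8 of the 9 members in both tissues, and Pdpn was the exception. In parenchyma, Ager had a lowest, median and highest value of 2016, 2503 and 3145 CPM with PBS and 1025, 1137 and 1355 CPM with HDM. The groups did not overlap, and Ager, the receptor, was 2.26-fold lower (log2FC -1.18, SE 0.26, adjusted p = 9.7e-05). Pdpn, the other surface protein, had 171.5, 304 and 347 CPM with PBS and 218, 271 and 352 with HDM. Its log2FC was -0.05 (95% confidence interval -0.38 to 0.29, adjusted p = 0.81), and the groups overlapped.

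Of the 9 members, Cav1 had the most negative log2FC in parenchyma. It went from 1441, 1727 and 1990 CPM (lowest, median and highest) to 344, 443 and 569 CPM in parenchyma, a 4.1-fold difference with no overlap (log2FC -2.04, SE 0.12, adjusted p = 2.8e-19). Cav2 had 473, 604 and 811 CPM with PBS and 174.8, 211 and 287 with HDM (log2FC -1.56, SE 0.12, adjusted p = 3.9e-15). Among the channels, Aqp5 went from 340.4 ± 63.99 (SD, n = 12) to 125.9 ± 19.1 CPM (n = 10, log2FC -1.49, SE 0.12), and Clic5 from 1178 ± 121.7 to 581 ± 63.97 CPM (log2FC -1.08, SE 0.22). Emp2, the tetraspan protein, fell 2.2-fold (log2FC -1.14, SE 0.19).

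Rtkn2 and Hopx, which act inside the cell, were 3.54-fold and 3.57-fold lower. Rtkn2 had 208, 276 and 322 CPM with PBS and 57.2, 75.7 and 107.5 CPM with HDM (log2FC -1.82, SE 0.27, adjusted p = 6.7e-08). Hopx had 862, 1027 and 1111 CPM with PBS and 236, 302 and 344 with HDM (log2FC -1.84, SE 0.16, adjusted p = 5e-14), and its highest HDM library was far below its lowest PBS library. The 8 members lower in parenchyma stood against a background of 44.3% of genes, and all 8 also had a log2FC of -1 or less (background 15.1%) and groups that did not overlap (background 19.4%).

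In airway, the same exposure gave log2FC of -1.88 (SE 0.12, adjusted p = 1.1e-17) for Cav1, -1.22 (SE 0.12) for Cav2, -1.52 (SE 0.15) for Hopx, -1.52 (SE 0.27) for Rtkn2 and -1.14 (SE 0.12) for Aqp5. Ager changed by -0.98 (SE 0.25, adjusted p = 0.00058), Emp2 by -0.90 (SE 0.19) and Clic5 by -0.73 (SE 0.21, adjusted p = 0.0022). Pdpn was at 0.03 (95% confidence interval -0.30 to 0.36, adjusted p = 0.88). These 8 lower members compare with a background of 40.5%, and only Cav1 had groups that did not overlap (687 to 1486 CPM with PBS, 228 to 517 with HDM; background 9.16%). Ager libraries ranged from 379 to 1947 CPM with PBS and from 166.9 to 1320 with HDM, so the airway groups overlapped over much of their range. The difference in HDM effect between tissues passed the test for 0 of 9 members by limma-voom, edgeR and DESeq2, where 17.3% of genes passed in either direction. Aqp5 had a difference of 0.34 (95% confidence interval 0.01 to 0.68, adjusted p = 0.16) and was the 1 member with an unadjusted p under 0.05, and Cav2 had the same difference (adjusted p = 0.17).

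**Figure D3:**
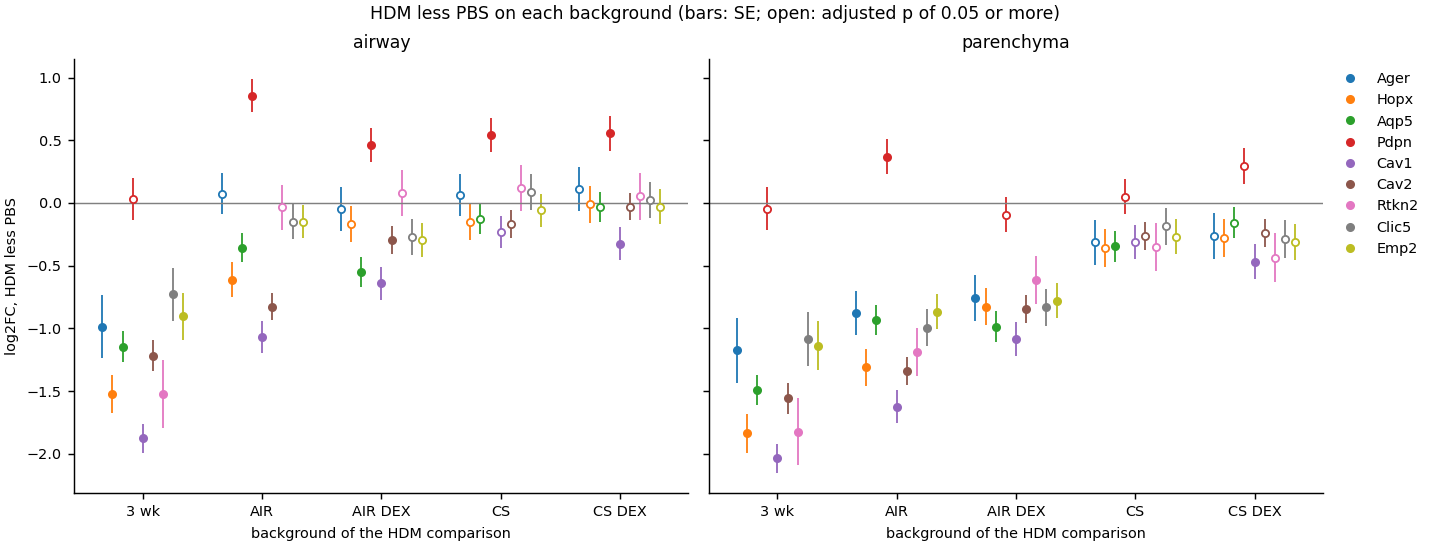
HDM less PBS for the 9 members in airway and parenchyma on 5 backgrounds (3 weeks, and AIR, AIR DEX, CS and CS DEX at 11 weeks). Points are log2FC and bars are SE, with open points where the adjusted p was 0.05 or more. Cav1 in parenchyma moves from -2.04 at 3 weeks to -1.62 with AIR and -0.31 with CS.

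Other genes of the type I programme were lower after 3 weeks of HDM too. Of the 16 further type I genes, 15 were lower in parenchyma (median log2FC -0.90, all genes -0.13) and 12 in airway (median -0.72, all genes -0.07). The largest changes in parenchyma were in Igfbp2 (-2.75, SE 0.27), a growth factor binding protein of mature type I cells, Sema3e (-1.91), a guidance ligand, Akap5 (-1.83) and Cyp2b10 (-1.81). Spock2 was at -0.09 and did not pass the test. Among the 11 regulators and YAP/TAZ targets, 8 were lower and 0 higher in parenchyma (median -1.06), including Ccn2 (-1.75) and Ccn1 (-1.60), which are YAP/TAZ targets, Tead1 (-1.62) and Gata6 (-1.40).

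Partners of the members moved in different directions. Of 7 genes of the caveola coat, 5 were lower in parenchyma, led by Cavin2 (-2.75), Cavin1 (-1.74) and Ehd2 (-1.04), while the muscle cavin Cavin4 was higher (0.95). Of 6 RAGE ligands, 3 were higher (S100a8 at 2.09, S100a9 at 1.69 and S100a4 at 1.15) and 2 were lower, Hmgb1 (-1.01) among them. Of 5 podoplanin partners, 4 were higher and 0 lower, with Cd44 at 1.58 and Clec1b, the gene of CLEC-2, at 0.61. Of 4 other aquaporins, Aqp9 (2.62) and Aqp3 (2.37) were higher and Aqp1, of capillary endothelium, was lower (-1.57). Among 8 relatives of Clic5, Emp2 and Rtkn2, 5 were lower and 2 higher, with Pmp22 at -2.12, Emp3 at 1.37, Clic3 at -1.26 and Clic1 at 0.86.

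Among genes of the flattening intermediate cells more were higher than lower, and those of type II cells moved in both directions. For genes lower in parenchyma the background was 44.3%. The share of all genes higher in this comparison is not given here. Counts of genes higher, here and among the partners, are therefore not read as a shift of a list. Of 12 transitional genes, 7 were higher and 1 lower in parenchyma, led by Sfn (2.28), Clu (2.25), Cldn4 (2.10) and Lgals3 (1.86), of which Lgals3 is also abundant in macrophages. Of 10 type II genes, 4 were lower and 2 higher (median -0.21), with Sftpd at 1.25 and Sftpc at -1.01. Endothelial genes were lower in 10 of 11 cases in parenchyma (median -1.70), and leukocyte genes were higher in 7 of 8 (median 1.60). The leukocyte genes summed to 434 to 574 CPM with PBS and 1451 to 1762 with HDM, the endothelial genes to 2113 to 3033 and 906 to 1333, and the 9 members to 8416 to 10706 and 3424 to 4200. No leukocyte or endothelial gene of these lists had a median of 0 in any group, and the part of both lists in the members' change was not tested. In airway the 7 cardiac muscle genes (median -2.42) and the 6 adipocyte genes (-2.26) were all lower with HDM, and their part in the airway values was not tested either.

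Continued exposure to week 11 left 8 members lower in parenchyma but 4 in airway. Pdpn was higher with HDM than with PBS in both tissues. In parenchyma of AIR mice, Cav1 had a lowest, median and highest value of 1715, 1969 and 2295 CPM with PBS and 385, 643 and 911 with HDM. The groups did not overlap, and Cav1 was 3.08-fold lower (log2FC -1.62, SE 0.13, adjusted p = 3.1e-22). Cav2 was 2.53-fold lower (log2FC -1.34, SE 0.11, adjusted p = 3.3e-22), from 672, 777 and 885 CPM to 221, 294 and 384. Hopx went from 837 ± 92.96 to 328 ± 65.1 CPM (SD, n = 10 each; log2FC -1.31, SE 0.15, adjusted p = 2.4e-14) and Rtkn2 from 299 ± 34.5 to 129.6 ± 37.4 CPM (log2FC -1.19, SE 0.19, adjusted p = 1.3e-08). Ager went from 2728 ± 187.1 to 1444 ± 271 CPM (log2FC -0.88, SE 0.18, adjusted p = 5.8e-06). Clic5 (-0.99, SE 0.15), Aqp5 (-0.94, SE 0.12) and Emp2 (-0.87, SE 0.14) were also lower. All 8 had groups that did not overlap (background 11.1%), and 26.9% of all genes were lower.

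In airway at 11 weeks, Cav1 had 629, 1228 and 1317 CPM with PBS and 375, 492 and 610 with HDM, which did not overlap (log2FC -1.07, SE 0.13, adjusted p = 5.1e-13), as 6.03% of genes did not in this direction. Cav2 (-0.83, SE 0.11), Hopx (-0.61, SE 0.14) and Aqp5 (-0.36, SE 0.12, adjusted p = 0.0057) were also lower, which made 4 of 9 against a background of 29.8%. Ager had a mean of 1135 CPM with PBS and 1054 CPM with HDM, and its log2FC of 0.07 (95% confidence interval -0.25 to 0.40, adjusted p = 0.71) changed sign under edgeR, DESeq2, library quality weights and without the libraries that stood apart. Rtkn2 (-0.04, adjusted p = 0.87), Clic5 (-0.15, adjusted p = 0.35) and Emp2 (-0.15, adjusted p = 0.32) did not pass the test.

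Podoplanin rose where the other members fell or were not called. In AIR airway, Pdpn had 63.2, 116.3 and 166.7 CPM with PBS and 149.02, 175.4 and 258 with HDM (log2FC 0.86, SE 0.13, adjusted p = 1.1e-08; background of genes higher 31.3%). The highest PBS libraries overlapped the lowest HDM libraries. In parenchyma it had 146.7, 183.6 and 277 CPM with PBS and 148.2, 252 and 345 with HDM (log2FC 0.37, SE 0.14, adjusted p = 0.016; background 32.6%). It was higher with HDM in airway on each of the other 11-week backgrounds as well, by 0.46 with AIR DEX (adjusted p = 0.0024; background 23.6%), 0.54 with CS (adjusted p = 0.00072; 17.5%) and 0.55 with CS DEX (adjusted p = 0.00064; 15.9%). In parenchyma on those backgrounds its log2FC were -0.09, 0.05 and 0.29, none of which passed. Of the 5 podoplanin partners, 4 were higher in AIR airway, with Cd44 at 1.31 and Clec1b at 1.30. Lymphatic endothelial genes, which mark another source of Pdpn, were lower in 5 of 6 cases in AIR airway (summed level 359 to 879 CPM with PBS and 136.8 to 402 with HDM), and mesothelial genes in 4 of 6 (84.8 to 423 and 69.8 to 138.1 CPM). In AIR parenchyma, 2 lymphatic genes were lower and 1 higher, and 3 mesothelial genes were lower and 0 higher. The part of either list in the Pdpn values was not tested.

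The HDM effect at 11 weeks differed between tissues for all 9 members, being less negative or more positive in airway (background 12.7%). The difference of log2FC was 1.15 for Rtkn2 (SE 0.26, adjusted p = 0.0003), 0.95 for Ager (SE 0.24, adjusted p = 0.0013), 0.84 for Clic5 (SE 0.20, adjusted p = 0.00074), 0.72 for Emp2 (SE 0.19) and 0.70 for Hopx (SE 0.20). It was 0.58 for Aqp5 (SE 0.17), 0.56 for Cav1 (SE 0.19), 0.51 for Cav2 (SE 0.15) and 0.49 for Pdpn (SE 0.19, adjusted p = 0.047), and 8 members passed without the libraries that stood apart, Pdpn not among them. Markers of other cell types moved in the same comparison. With HDM in AIR airway all 7 cardiac muscle genes (median log2FC -2.66, 305 to 3335 CPM summed with PBS and 33.9 to 541 with HDM), all 6 adipocyte genes (-2.97) and all 7 smooth muscle genes (-1.44) were lower, and 8 of 10 type II genes were higher (median 0.70), led by Sftpd (1.39), Lamp3 (1.27) and Slc34a2 (1.18). All 8 ciliated cell genes were lower in AIR airway as well (median -0.95). In AIR parenchyma, 4 of 8 ciliated genes (median 0.39) and 3 of 7 smooth muscle genes (0.53) were higher with HDM and 0 lower. The background of genes higher was 32.6%. There 0 cardiac muscle genes passed and 1 of 6 adipocyte genes was lower. The HDM effect was lower in airway than in parenchyma for all 8 ciliated (median difference -1.37) and all 7 smooth muscle genes (-1.86). The part of these lists in the tissue difference was not tested.

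The effect of HDM in AIR mice at 11 weeks was also compared with that at 3 weeks. In airway the difference was positive for 7 members (background 14.5%), at 1.43 for Rtkn2 (SE 0.29, adjusted p = 4e-05), 1.00 for Ager (SE 0.27, adjusted p = 0.0022), 0.85 for Hopx, 0.77 for Pdpn, 0.75 for Cav1, 0.73 for Aqp5 and 0.69 for Emp2. Cav2 (0.33, adjusted p = 0.098) and Clic5 (0.52, adjusted p = 0.072) did not pass. In parenchyma only Aqp5 passed (0.43, SE 0.17, adjusted p = 0.032; background 21.5%), which became 4 members with library quality weights, 3 in a fit per tissue and 0 with no filter. The time points differ in the length of exposure and in the frequency of HDM, and may also differ in the time of processing. These cannot be told apart. Each difference also depends on the PBS libraries of both time points. For Aqp5 in parenchyma, the mean of PBS AIR libraries at 11 weeks was below that of PBS libraries at 3 weeks. Its HDM means differed less. How much of any difference came from the PBS or the HDM libraries was not tested.

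In parenchyma of AIR mice at 11 weeks, 14 of the 16 further type I genes were lower with HDM (median -0.81, all genes 0.05), led by Igfbp2 (-1.65), Vegfa (-1.51) and Cyp2b10 (-1.14), compared with 7 lower and 3 higher in airway (median -0.23). Among regulators 8 of 11 were lower and 1 higher, with Ccn1 at -1.56, Ccn2 at -1.10, Tead1 at -1.04 and Yap1 at -0.94. Cavin2 (-1.84) and Cavin1 (-1.40) were again among 5 lower caveola genes. Transitional genes were higher in 6 of 12 cases and lower in 2 (backgrounds 32.6% and 26.9%). Lgals3 was at 2.21, Clu at 2.07, Cldn4 at 1.45 and Sfn at 1.28. Endothelial genes were lower in 11 of 11 (median -1.37) and leukocyte genes higher in 6 of 8 (median 1.65), and their part was not tested.

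Cigarette smoke by itself lowered the caveolins in parenchyma. In PBS mice, Cav1 had 1715, 1969 and 2295 CPM with AIR and 1112, 1288 and 1493 with CS (log2FC -0.59, SE 0.14, adjusted p = 0.00033), and the groups did not overlap. Cav2 had 672, 777 and 885 CPM with AIR and 517, 565 and 643 with CS (log2FC -0.42, SE 0.12, adjusted p = 0.0018), again without overlap. The other 7 members did not pass, with log2FC from -0.35 for Clic5 (adjusted p = 0.063) to 0.10 for Pdpn. The 2 lower members compare with a background of 18.2%, and of 3.28% for groups that did not overlap, and a fit per tissue gave 5 members. The coat genes Cavin2 (-0.72), Cavin1 (-0.54) and Ehd2 (-0.34) were lower as well, as were 6 of 11 endothelial genes (median -0.39) and the YAP/TAZ targets Ccn2 (-0.90) and Ccn1 (-0.71). Endothelial genes summed to 3469 to 4337 CPM with AIR and 2542 to 3467 with CS, and their part in the caveolin values was not tested. Of the other type I genes, 2 of 16 were lower, Vegfa (-0.58) and Lmo7 (-0.42).

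Smoke in PBS airway changed 0 of 9 members by limma-voom (background 13.7% in either direction), edgeR and DESeq2, and 0 had an unadjusted p under 0.05. Cav1 was at -0.26 (95% confidence interval -0.52 to 0.00, adjusted p = 0.21). Under DEX, smoke lowered Cav2 in PBS parenchyma (-0.40, SE 0.12, adjusted p = 0.0084, background 8.93%), again with no overlap (background 0.652%), and changed 0 of 9 members in airway by limma-voom (background 3.93%), edgeR and DESeq2, with 0 at an unadjusted p under 0.05. The difference in smoke effect between tissues passed for 0 of 9 members, where 3.73% of genes passed, and 2 had an unadjusted p under 0.05.

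In mice that received HDM, smoke went with higher levels of these genes. In HDM parenchyma, 7 members were higher with CS than with AIR (background 10.0%). Hopx had 241, 305 and 449 CPM with HDM AIR and 490, 571 and 646 with HDM CS (log2FC 0.78, SE 0.14, adjusted p = 9.6e-06), with no overlap (background 0.482%). Cav2 did not overlap either (221, 294 and 384 CPM, compared with 405, 453 and 536; log2FC 0.65, SE 0.11, adjusted p = 8e-07). Cav1 had 385, 643 and 911 CPM and 804, 1019 and 1347 CPM (log2FC 0.72, SE 0.13, adjusted p = 4.2e-06), and 9 of the 10 HDM CS libraries were above all HDM AIR libraries. Rtkn2 (0.72, SE 0.18), Clic5 (0.46, SE 0.14), Aqp5 (0.44, SE 0.12) and Emp2 (0.39, SE 0.13, adjusted p = 0.025) were also higher. Ager (0.39, adjusted p = 0.088) and Pdpn (-0.22, adjusted p = 0.28) did not pass.

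The HDM AIR libraries that this comparison uses are those of the HDM effect above, so the 2 comparisons are not independent. In HDM airway, 4 members were higher with CS (background 6.07%), Cav1 by 0.58 (SE 0.13, adjusted p = 0.00029), Cav2 by 0.54 (SE 0.11, adjusted p = 5e-05), Hopx by 0.53 (SE 0.14) and Rtkn2 by 0.49 (SE 0.18, adjusted p = 0.047). Without the libraries that stood apart, and with library quality weights, the count was 7. With DEX, only Aqp5 was higher with CS in HDM mice, by 0.70 in parenchyma (SE 0.12, adjusted p = 1.2e-05; background 4.11%) and by 0.54 in airway (SE 0.12, adjusted p = 0.0021; background 1.73%). In parenchyma the count was 2 with a CPM minimum of 10 and with no filter, 3 by edgeR and DESeq2 and 7 in a fit per tissue and with library quality weights, which gave 2 in airway.

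**Figure D4:**
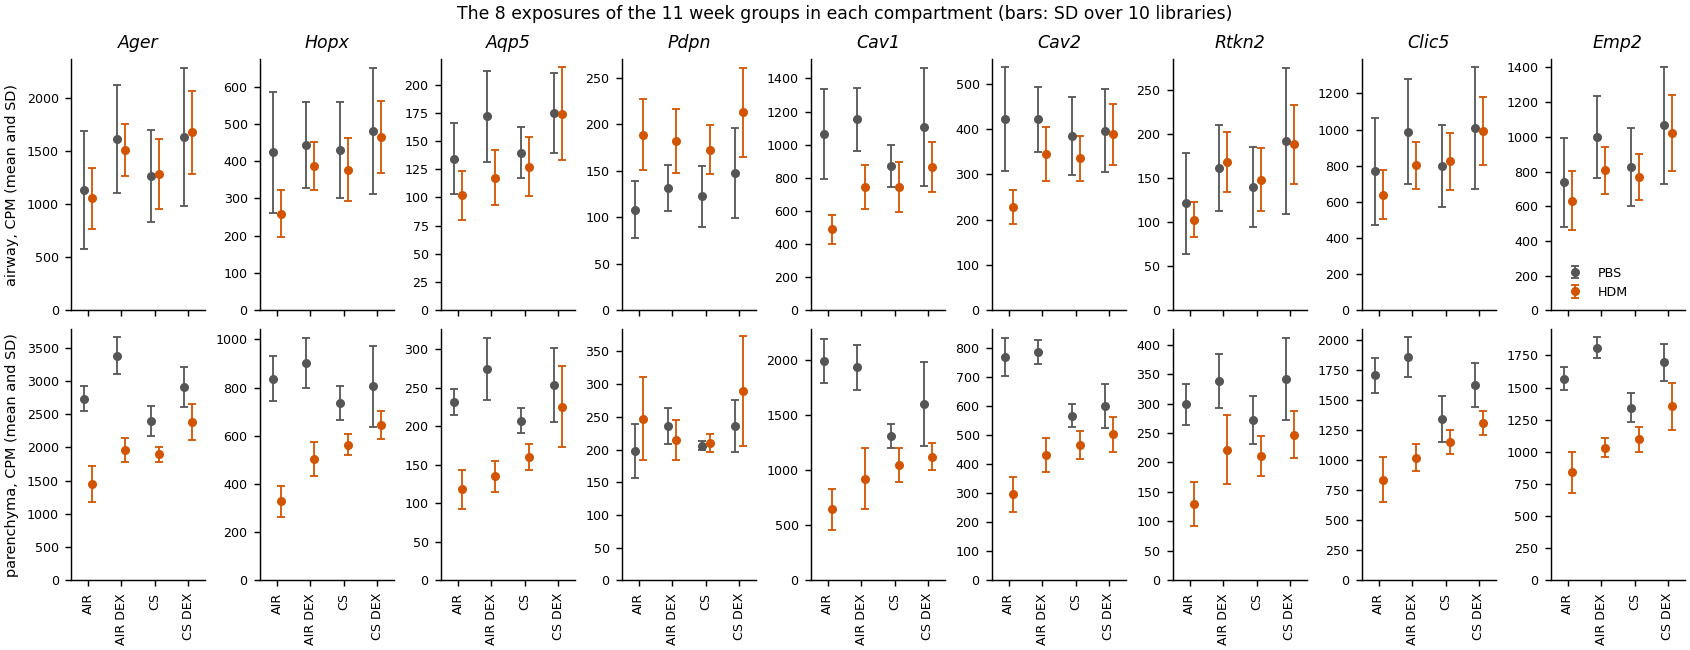
Mean level of the 9 members in CPM in the 8 exposures at 11 weeks, in both tissues, with PBS in grey and HDM in orange. Error bars are SD over 10 libraries. Cav1 in parenchyma is at 1993 with PBS AIR, 643 with HDM AIR, 1310 with PBS CS and 1048 with HDM CS.

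The HDM by CS interaction tested whether the HDM effect differed with smoke, and it was positive for 7 members in parenchyma (background 17.3%). It was 1.31 for Cav1 (SE 0.19, adjusted p = 5.6e-09), 1.07 for Cav2 (SE 0.16, adjusted p = 8.4e-09), 0.95 for Hopx (SE 0.21, adjusted p = 0.00011), 0.84 for Rtkn2 (SE 0.27), 0.81 for Clic5 (SE 0.21), 0.60 for Emp2 (SE 0.20) and 0.59 for Aqp5 (SE 0.17). Ager, at 0.57, had an adjusted p of 0.065, and Pdpn was at -0.32 (adjusted p = 0.2). The interaction also depends on the PBS libraries, in which CS lowered Cav1 and Cav2 in parenchyma, as given above. How much of it came from the PBS or the HDM libraries was not tested. In airway the interaction passed for Cav1 (0.84, SE 0.18, adjusted p = 0.00033) and Cav2 (0.66, SE 0.15, adjusted p = 0.00069), against a background of 7.72%. Under smoke itself, HDM lowered only Aqp5 in parenchyma (-0.35, SE 0.12, adjusted p = 0.049; background 2.42%), and the other 7 lower-lying members had log2FC of -0.36 to -0.19 that did not pass. That count was 6 in a fit per tissue, 7 with library quality weights and 0 with no filter. In CS airway, Pdpn was the 1 member that passed, and 3 did with library quality weights.

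With CS and DEX together, HDM lowered Cav1 in parenchyma (-0.47, SE 0.14, adjusted p = 0.0075; background 9.09%) and in airway (-0.32, SE 0.13, adjusted p = 0.047; background 17.7%). The airway call of Cav1 was lost with no filter, with all libraries in the same fit, in a fit per tissue and without the libraries that stood apart. In parenchyma the count was 2 by DESeq2 and 8 in a fit per tissue and with library quality weights. Further type I genes were compared in the same groups. In HDM parenchyma, 9 of 16 were higher with CS than with AIR (median 0.48, all genes -0.01), led by Igfbp2 (1.26), Akap5 (0.77), Scnn1g (0.69) and Cyp2b10 (0.69), and none was lower. Endothelial genes were higher in 9 of 11 (median 0.65), leukocyte genes lower in 5 of 8 (median -0.64) and the transitional genes Clu (-0.89), Cldn4 (-0.77) and Trp53 (-0.31) lower. Leukocyte genes summed to 967 to 1610 CPM with HDM AIR and 775 to 1060 with HDM CS, and endothelial genes to 860 to 2408 and 1997 to 3173, and the part of either in the members' values was not tested.

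Dexamethasone went with higher levels of several members in HDM AIR mice. In parenchyma 5 were higher (background 12.2%), Rtkn2 by 0.75 (SE 0.18, adjusted p = 0.00059), Hopx by 0.60 (SE 0.14, adjusted p = 0.00046), Cav2 by 0.53 (SE 0.11, adjusted p = 2.6e-05), Cav1 by 0.49 (SE 0.13, adjusted p = 0.0012) and Ager by 0.43 (SE 0.17, adjusted p = 0.046). Rtkn2 had 81.8, 123.7 and 195.5 CPM without DEX and 136.6, 220.5 and 312 with it, so the groups overlapped. In airway 6 were higher (background 12.5%), Rtkn2 by 0.68 (SE 0.18), Cav1 by 0.59 (SE 0.12, adjusted p = 7.3e-05), Hopx by 0.58 (SE 0.14), Cav2 by 0.58 (SE 0.10, adjusted p = 2.8e-06), Ager by 0.53 (SE 0.17) and Emp2 by 0.36 (SE 0.13). Cav1 in airway had 375, 492 and 610 CPM without DEX and 530, 754 and 933 with it, and again the groups overlapped.

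The response to DEX in the remaining exposures was less uniform. In PBS AIR airway 5 members were higher (background 8.03%), Ager by 0.65 (SE 0.17, adjusted p = 0.0034), Rtkn2 by 0.57, Emp2 by 0.51, Clic5 by 0.44 and Aqp5 by 0.38. That count was 3 by edgeR, by DESeq2 and with all libraries in the same fit, 2 in a fit per tissue and 0 with library quality weights. In PBS AIR parenchyma 0 of 9 passed by limma-voom (background 22.6% in either direction), edgeR and DESeq2, and Pdpn was the 1 member with an unadjusted p under 0.05. Ager there ranged from 2472 to 2971 CPM without DEX and from 3050 to 3900 with it, and did not pass although these ranges do not overlap (log2FC 0.31, adjusted p = 0.24; background 2.14%). Library quality weights gave 3 members and a fit per tissue 2. In PBS CS mice 0 passed in both tissues by limma-voom (backgrounds 11.3% in airway and 16.9% in parenchyma), with 5 and 2 members at an unadjusted p under 0.05, and DESeq2 gave 2 in airway and 1 in parenchyma. In HDM CS mice Aqp5 was higher, by 0.42 in airway (SE 0.12, adjusted p = 0.012; background 2.25%) and 0.45 in parenchyma (SE 0.12, adjusted p = 0.0088; background 2.46%). In airway the count of 1 became 2 by edgeR, by DESeq2, with its size factors, with a CPM minimum of 10 and without the libraries that stood apart, and 7 with library quality weights. In parenchyma it became 2 by edgeR, by DESeq2, with its size factors, with a CPM minimum of 10 and with library quality weights, and 4 in a fit per tissue. Aqp5 itself passed under every alternative in both tissues.

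HDM under DEX still lowered 8 members in AIR parenchyma (background 19.6%), from Cav1 at -1.09 (SE 0.14, adjusted p = 7.4e-12) and Aqp5 at -0.99 (SE 0.12, adjusted p = 5.6e-12) to Rtkn2 at -0.61 (SE 0.19, adjusted p = 0.0059). In AIR airway it lowered Cav1 (-0.64, SE 0.13), Aqp5 (-0.55, SE 0.12) and Cav2 (-0.30, SE 0.11), against a background of 26.1%. The HDM by DEX interaction was positive for Cav1 (0.54, SE 0.19, adjusted p = 0.047) and Cav2 (0.50, SE 0.16, adjusted p = 0.025) in parenchyma (background 6.02%) and for Cav2 in airway (0.53, SE 0.15, adjusted p = 0.021; background 1.11%). The airway call of Cav2 was lost in a fit per tissue (0 members), and library quality weights gave 3. In parenchyma the count was 1 with no filter, where the call of Cav1 was lost, 4 with library quality weights and 5 in a fit per tissue. The CS by DEX interaction passed for 0 members in either tissue (backgrounds 0.0822% in airway and 3.22% in parenchyma) and the difference in DEX effect between tissues for 0 (0.279%), by limma-voom, with 0 at an unadjusted p under 0.05 in each.

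Among other epithelial genes in HDM AIR parenchyma, DEX raised 6 of 16 further type I genes (median 0.27), led by Akap5 (0.92), Cyp2b10 (0.81), Col4a4 (0.61) and Vegfa (0.60), and 7 of 10 type II genes (median 0.58), led by Sftpb (0.75), Lpcat1 (0.69) and Slc34a2 (0.64). Of the regulators 6 of 11 were higher, Tead1 (0.64), Foxa2 (0.55), Nkx2-1 (0.53) and Gata6 (0.52) leading. Leukocyte genes were lower in 7 of 8 (median -0.76), with sums of 967 to 1610 CPM without DEX and 687 to 1014 with it, and endothelial genes were higher in 3 of 11 (median 0.29). In airway 8 of 10 type II genes, 8 of 11 endothelial genes and 8 of 11 regulators were higher and 6 of 8 leukocyte genes lower. Their part in the members' response was not tested.

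**Figure D5:**
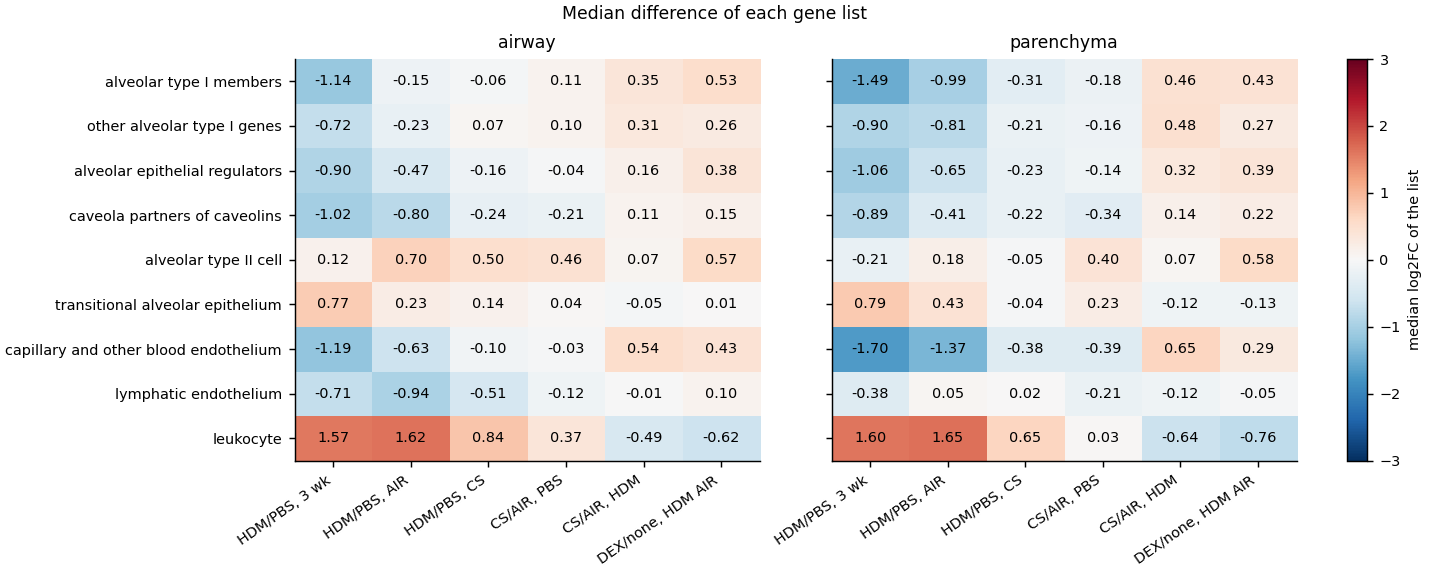
Median log2FC of each gene list in 6 comparisons and both tissues, with the value printed in each cell and colour on a scale centred at 0. In parenchyma at 3 weeks of HDM the members are at -1.49, the further type I genes at -0.90, the endothelial genes at -1.70 and the leukocyte genes at 1.60.

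Across the 10 parenchyma groups, Ager was highest with PBS AIR DEX (3377 ± 275 CPM, SD, n = 10) and lowest with HDM at 3 weeks (1164 ± 121.9), and 4 of the 9 steps between neighbouring groups exceeded their pooled SD. Cav1 was highest with PBS AIR (1993 ± 200) and lowest with HDM at 3 weeks (445 ± 67.6), with 5 such steps. Clic5 and Hopx also had 5 steps beyond the spread, Cav2 and Emp2 4, Aqp5 3 and Rtkn2 2. Pdpn had 0 in either tissue, so no neighbours in its order differed beyond their spread. In airway the count was 2 for Cav1, Cav2 and Hopx and 1 for the remaining members other than Pdpn.

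Likeness is a description over the 20 group means, which share libraries with every comparison above. The genes most like the mean of the members were Magi3 (Pearson r = 0.992), Gm15337 (0.992) and Arhgef26 (0.991). Ranked by Spearman rank correlation (rho) instead, this list changed, with rho of 0.959, 0.977 and 0.976 for these genes in the same order. Closest to single members were Adk for Ager (0.988), Ccdc68 for Hopx (0.988), Nsun4 for Aqp5 (0.974), Zfp641 for Cav1 (0.990), Tal1 for Cav2 (0.997), Phactr1 for Rtkn2 (0.986), Pard6b for Clic5 (0.987) and Wnt7a for Emp2 (0.991). Pdpn was nearest to Brd7 (0.944). Among the members, Ager and Emp2 had the highest correlation (0.987), followed closely by the neighbours Cav1 and Cav2 (0.980), and the pairs without Pdpn ran from 0.750 upward. The pairs with Pdpn ran from 0.084 to 0.508.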

How the data were processed

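Bulk RNA from dissected airway and parenchyma was sequenced by the authors as 100 bp single reads (NovaSeq), and the submitters' processing notes name bcl2fastq 2.20.0.422, STAR 2.5.1b on mm10, RSEM 1.2.31 and kallisto 0.44.0, without saying which quantifier made the table. The deposited values are estimated counts per gene, not scaled for library size or gene length. Of these, 20.3% of values above 0 were not whole, and all were rounded here. Identifiers were matched to GENCODE M21 symbols (98.0% of 43346). Groups came from the library titles.

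A gene was tested where 9 or more libraries reached the CPM that 10 counts give in a library of median size. limma-voom 3.58.1 with TMM factors (edgeR 4.0.16, R 4.3.3) was fitted to the 43 libraries at 3 weeks (17377 genes), to the 160 at 11 weeks (18250 genes) and to all 203 (18528 genes) for the comparison of times, with no covariate. P-values were adjusted over all genes tested. Levels used TMM factors over all 203 libraries, divided by exon length only where genes were compared with each other. The 9 members and the gene lists were chosen with earlier results of these data known, so lists are described by counts and medians with no test. All members were named. From other lists, up to 4 genes with the largest changes past the threshold were named, and likeness was ranked by Pearson r over group means. Scripts were tested on simulated data. No 2 libraries of a group agreed within sampling noise (smallest chi-square per degree of freedom 8.09).

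Results were recomputed with DESeq2 1.42.0, with its size factors in limma-voom, with the quasi-likelihood test of edgeR, with a CPM minimum of 10, with no filter, with library quality weights, a fit to all libraries and, for comparisons within a tissue, a fit per tissue. Leaving out 5 libraries that stood apart was added after the data were seen. Figures were drawn with matplotlib 3.10.9.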

Additional observations from a re-analysis of the deposited data

Results flagged for a closer look

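Over the sets of values of a member in a group of 10 libraries, 11 (6.79%) had a library far from the others by Dixon's test. Values of the members in the same library are not independent, and most of the 11 were in X109 and X160. The share is therefore not set against a chance rate. The library coded X109 was far above the other HDM AIR airway libraries for Ager (1736 CPM), Hopx (416.7 CPM), Aqp5 (157.2 CPM) and Emp2 (1055 CPM). X160, of HDM CS DEX parenchyma, was the highest for Aqp5 (351.5 CPM), Pdpn (518.7 CPM) and Emp2 (1826 CPM) and the lowest for Cav2 (366.7 CPM). X183 was highest for Cav2 among HDM airway libraries at 3 weeks (252.07 CPM), X192 highest for Clic5 in HDM AIR DEX parenchyma (1280 CPM) and X173 lowest for Clic5 in PBS CS parenchyma (889.3 CPM).

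Of the differences between the effects in pairs of groups, 29 (26.9%) passed the test of the difference itself at an adjusted p under 0.05. The HDM effect was less negative with CS than with AIR in parenchyma for Cav1 (difference of log2FC 1.31), Cav2 (1.07), Hopx (0.95), Rtkn2 (0.84), Clic5 (0.81), Emp2 (0.60) and Aqp5 (0.59), and in airway for Cav1 (0.84) and Cav2 (0.66). It was less negative with DEX than without in parenchyma for Cav1 (0.54) and Cav2 (0.50) and in airway for Cav2 (0.53). At 11 weeks it was higher in airway than in parenchyma for Rtkn2 (1.15), Ager (0.95), Clic5 (0.84), Emp2 (0.72), Hopx (0.70), Aqp5 (0.58), Cav1 (0.56), Cav2 (0.51) and Pdpn (0.49). From 3 to 11 weeks it rose in airway for Rtkn2 (1.43), Ager (1.00), Hopx (0.85), Pdpn (0.77), Cav1 (0.75), Aqp5 (0.73) and Emp2 (0.69), and in parenchyma for Aqp5 (0.43).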

How the results depend on the processing

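Counts of members past an adjusted p under 0.05 that moved by over 1.5 times are given as main to alternative. With a CPM minimum of 10 in 9 libraries, airway less parenchyma went from 4 to 2 with HDM AIR and from 1 to 0 with HDM AIR DEX, the DEX effect in HDM CS mice from 1 to 2 in each tissue, and the CS effect in HDM DEX parenchyma from 1 to 2. DESeq2 gave 3 for 5 (DEX, PBS AIR airway), 2 for 0 (DEX, PBS CS airway), 1 for 0 (DEX, PBS CS parenchyma), 2 for 1 (DEX, HDM CS in each tissue), 2 for 1 (HDM, CS DEX parenchyma) and 3 for 1 (CS, HDM DEX parenchyma), and its size factors in limma-voom gave 2 for 1 for DEX in HDM CS mice in each tissue. The quasi-likelihood test of edgeR gave 3 for 5 (DEX, PBS AIR airway), 2 for 0 (DEX, PBS CS airway), 2 for 1 (DEX, HDM CS in each tissue) and 3 for 1 (CS, HDM DEX parenchyma). All libraries in the same fit gave 0 for 1 (airway less parenchyma, HDM AIR DEX), 1 for 2 (HDM, CS DEX airway) and 3 for 5 (DEX, PBS AIR airway). With no filter the counts were 1 for 4, 0 for 1 and 5 for 8 for airway less parenchyma with HDM AIR, HDM AIR DEX and HDM CS DEX, 1 for 2 (HDM, CS DEX airway), 0 for 1 (HDM, CS parenchyma), 2 for 1 (CS, HDM DEX parenchyma), 1 for 2 (HDM by DEX, parenchyma) and 0 for 1 (11 less 3 weeks, parenchyma).

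Library quality weights gave 7 for 4 and 3 for 1 for airway less parenchyma with HDM AIR and HDM AIR DEX. In airway they gave 3 for 1 (HDM, CS), 1 for 0 (CS, PBS), 7 for 4 (CS, HDM), 2 for 1 (CS, HDM DEX), 0 for 5 (DEX, PBS AIR), 4 for 0 (DEX, PBS CS), 7 for 1 (DEX, HDM CS) and 3 for 1 (HDM by DEX). In parenchyma they gave 7 for 1 (HDM, CS), 8 for 1 (HDM, CS DEX), 7 for 1 (CS, HDM DEX), 3 for 0 (DEX, PBS AIR and PBS CS each), 2 for 1 (DEX, HDM CS), 4 for 2 (HDM by DEX) and 4 for 1 (11 less 3 weeks). A fit per tissue gave 1 for 2 (HDM, CS DEX), 2 for 5 (DEX, PBS AIR) and 0 for 1 (HDM by DEX) in airway, and in parenchyma 6 for 1 (HDM, CS), 8 for 1 (HDM, CS DEX), 5 for 2 (CS, PBS), 2 for 1 (CS, PBS DEX), 7 for 1 (CS, HDM DEX), 2 for 0 (DEX, PBS AIR), 3 for 0 (DEX, PBS CS), 4 for 1 (DEX, HDM CS), 5 for 2 (HDM by DEX) and 3 for 1 (11 less 3 weeks). Without the libraries that stood apart, airway less parenchyma gave 7 for 4 (HDM AIR), 0 for 1 (HDM AIR DEX) and 5 for 8 (HDM CS DEX), and airway gave 1 for 2 (HDM, CS DEX), 7 for 4 (CS, HDM) and 2 for 1 (DEX, HDM CS). The cause of these moves was not tested.

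Of the log2FC of single members that had passed, 1501 values under alternatives kept direction and threshold, 64 lost the threshold and 0 reversed. Those that had not passed were followed in only part of the comparisons, and there 401 were alike, 57 passed and 12 reversed. The comparisons left out include some whose counts rose above, such as HDM with CS DEX in parenchyma. These numbers therefore do not give the share of all non-passing values that would change. Pdpn with HDM at 3 weeks went from 0.03 to -0.018 in airway with quality weights, and in parenchyma from -0.05 to 0.032 (DESeq2), 0.045 (size factors), 0.031 (CPM minimum of 10), 0.072 (no filter), 0.017 (all libraries), 0.062 (a fit per tissue) and 0.049 (without the libraries that stood apart). Ager with HDM in AIR airway went from 0.07 to -0.084 (edgeR), -0.11 (DESeq2), -0.228 (quality weights) and -0.033 (without the libraries that stood apart). Another scaling moved the median of all genes by at most 0.09. No paired analysis was possible because the labels give each library its own code and no shared replicate numbers, and pairs were not inferred from the order of the codes. The lowest count of a member in any library was 276, and airway comparisons rest on groups with a wide spread (median within-group SD of log2 values 0.49 for Ager in airway and 0.14 in parenchyma).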
